A study of Danio rerio with 4 samples.

Results

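Apolipoproteins are the protein components of lipoproteins, the particles that carry fat and cholesterol through blood and lymph. The genes described here are 10 zebrafish apolipoprotein genes given by name, of which the count table lists 9 under those names, out of 14781 genes in all: apobb.1, apoa1a, apoa1b, apoa2, apoa4a, apoa4b.1, apoa4b.2, apoea and apoeb. The tenth, apoc1, matched only through apoc1l, a synonym that the RefSeq gene table of assembly GRCz12tu gives for it, so apoc1l is described beside the 9 genes and not counted among them. Messenger RNA was sequenced from 4 whole-gut samples of untreated adult zebrafish, 2 homozygous and 2 heterozygous for the st95 mutation of irf8. The sample titles number the samples within each genotype and do not say whether a sample is 1 fish or a pool. Each sample is treated here as 1 fish. Both genotypes carry the st95 allele, so no gut with 2 intact copies of irf8 was compared. irf8 encodes a transcription factor required for the formation of macrophages.

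Enterocytes, the absorptive cells of the gut lining, take up fatty acids, rebuild triglyceride and pack it around apolipoprotein B with the help of microsomal triglyceride transfer protein. The particles formed, chylomicrons, also carry smaller exchangeable apolipoproteins such as those of classes A and E. The liver secretes its own lipoproteins with many of the same proteins. In mammals, macrophages are a further source of apolipoprotein E.

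Library totals ranged from 6350840 to 10391963 counts. irf8 had 25 and 25 counts in the homozygous libraries and 30 and 50 in the heterozygous ones (log2 fold change -0.82 ± 0.58, SE; edgeR adjusted p = 0.729). The intestinal fatty acid binding protein gene fabp2, which marks the labelled tissue, had 11284 and 8824 CPM (counts scaled to library size by the TMM method) in homozygous replicates 1 and 2, and 18453 and 3444 CPM in heterozygous replicates 1 and 2, the order in which libraries are given throughout. Heterozygous replicate 2 stood apart from the other 3 libraries. In it, 18 exocrine pancreas markers took 29.6% of all counts, against 0.427% to 4.09% in the others, and 27 hepatocyte markers took 0.487%, against 0.00750% to 0.110%.

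Per unit of gene length, apoa1a and apoea were the most abundant transcripts of the whole table. In TPM (relative transcript abundance, from the counts and the gene lengths in the table), apoa1a ranked 1 and apoea 2 of all 14781 genes in both homozygous libraries and in heterozygous replicate 1. They ranked 12 and 15 in heterozygous replicate 2. apoa1a, whose mammalian counterpart is the main protein of high-density lipoprotein, had 45910 and 46613 TPM in the homozygous libraries, against 68375 and 13320 TPM in the heterozygous ones. apoea, a gene of the class whose mammalian member binds receptors of the LDL receptor family, had 29177 and 44593 TPM in the homozygous libraries, against 44359 and 8893 TPM in the heterozygous ones.

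The order of the members by mean TPM over the 4 libraries was apoa1a, apoea, apoa4b.2, apoeb, apoa4b.1, apobb.1, apoa4a, apoa2 and apoa1b. The first 5 steps of this order held in 4 of 4 libraries. apoa1a exceeded apoea by as little as 1.05-fold in homozygous replicate 2, and apoeb exceeded apoa4b.1 by as little as 1.03-fold in that library too. The last 3 steps, from apobb.1 to apoa4a, from apoa4a to apoa2 and from apoa2 to apoa1b, held in 3 of 4 libraries each. At the low end apoa1b lay anywhere between 8.89 TPM in heterozygous replicate 1 and 1462 TPM in heterozygous replicate 2.

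The members lie on 5 chromosomes, given here in danRer10, the build of the count table. A cluster on chromosome 16 holds apoa4b.1 (23999052 to 24000948), apoa4b.2 (24032187 to 24033399), apoeb (24046244 to 24048431), apoc1l (24057095 to 24058691) and apoa2 (24063946 to 24065236), all on the plus strand within 66185 bases. On chromosome 19, apoa4a (10927028 to 10931909) and apoea (10936233 to 10940769) follow each other on the plus strand with 4323 bases between them. apoa1a is on chromosome 5 (37378359 to 37381359, plus strand), apoa1b on chromosome 15 (31383 to 33843, minus strand) and apobb.1 on chromosome 20 (31366899 to 31382011, plus strand). apobb.1 has 27 exons and 11495 bases of exon, and each of the other 8 members has 4 exons and 664 to 1330 bases. apoa4b.1 and apoa4b.2 are tandem copies, and the division of shared reads between them is uncertain.

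Homozygous fish were set against heterozygous fish to see how gut transcripts depend on irf8. No apolipoprotein gene differed between the genotypes beyond the spread between fish. apobb.1 and apoa4b.1 had the highest fold changes of the 9, at 2.16-fold and 1.86-fold, and apoa1b and apoa2 the lowest, at 0.229-fold and 0.448-fold. apoea was at 0.998-fold. In the edgeR quasi-likelihood fit, with p-values adjusted by Benjamini-Hochberg over 9701 tested genes, 0 of the 9 members were called at an adjusted p of 0.05, where 0% of all tested genes were called. The lowest adjusted p among the members was 0.760, for apoa4b.1.

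At an unadjusted p of 0.05, 0 of the 9 members passed, where 6.47% of all tested genes did. DESeq2's Wald test called 0 members, where it called 0.511% of the genes to which it gave an adjusted p, and 0 members were under 0.05 unadjusted, where 6.12% of the genes it tested were. Of the 9 members, 4 had a positive and 5 a negative log2 fold change, where 46.7% of all tested genes had a positive one. The members' median was -0.0030, against -0.05 over all tested genes. The libraries of the 2 genotypes did not overlap for 1 member, apoeb, which was higher in both homozygous libraries; over all tested genes the share without overlap was 39.2%, and the share without overlap and with the homozygous libraries higher was 19.9%. All 9 members passed the filter on low counts.

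**Figure D1:**
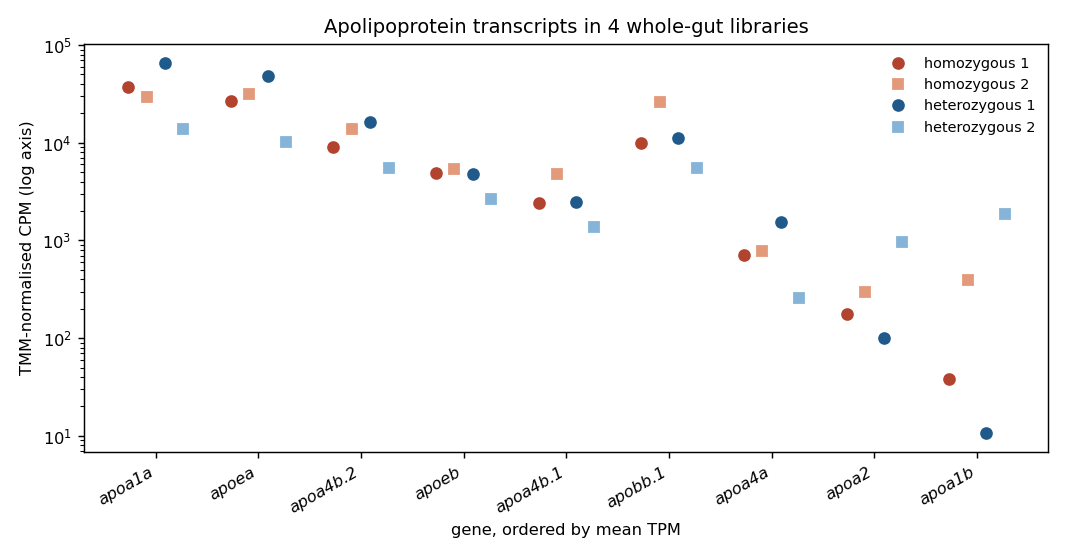
TMM-normalised CPM on a log axis for each of the 9 apolipoprotein genes, 1 point per library, with the genes ordered by mean TPM. The light blue square of heterozygous replicate 2 is the lowest point for 7 genes and the highest for apoa2 and apoa1b.

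The members varied more between fish of the same genotype than the median gene did. The median SE of the log2 fold change was 1.0 over the members and 0.51 over all tested genes. This SE comes from a variance moderated across genes, so it does not measure the spread of each gene's own values alone. The folds between libraries of a genotype do. Between the homozygous libraries the median member differed 1.54-fold, against 1.40-fold over the 9523 tested genes above 0 in every library. Between the heterozygous libraries it differed 4.68-fold, against 1.53-fold over the same genes. For 9 of 9 members, the fold between the libraries of at least 1 genotype was larger than the fold between genotypes. The same count was not made over all tested genes, so it does not set the members apart from them. Heterozygous replicate 2 was the lowest library for 7 members, where it was lowest for 24.1% of all tested genes, and the highest for the other 2, where it was highest for 26.9%.

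**Figure D2:**
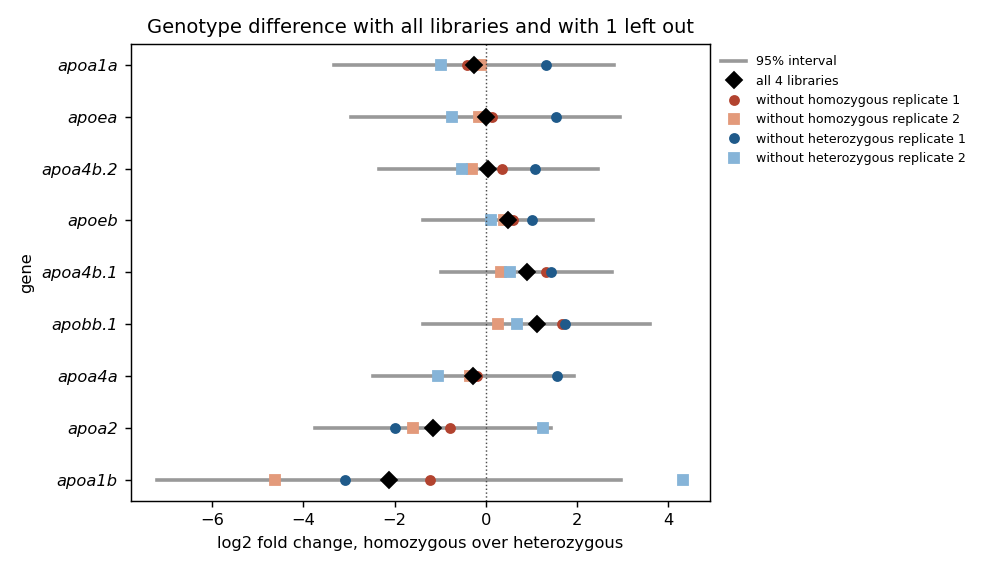
Log2 fold change of each member, homozygous over heterozygous, from edgeR with all 4 libraries (black diamonds, with 95% intervals as grey bars) and with each library left out in turn (coloured points). Every grey bar crosses 0, and apoa1b runs between -4.61, where homozygous replicate 2 is left out, and 4.33, where heterozygous replicate 2 is left out.

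apobb.1 encodes a zebrafish apolipoprotein B, the large structural protein that stays with a chylomicron for its lifetime. It had 10026 and 25922 CPM in the homozygous libraries, against 11067 and 5562 CPM in the heterozygous ones. Homozygous replicate 2 was high and heterozygous replicate 2 low, while homozygous replicate 1 lay within the heterozygous range. The log2 fold change was 1.11 ± 1.0 (SE), with a 95% interval of -1.38 to 3.60 and an edgeR adjusted p of 0.771.

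apoa4b.1 followed nearly the same course over the libraries. Class A4 apolipoproteins are made by enterocytes in mammals and travel on chylomicrons. apoa4b.1 had 2444 and 4739 CPM in the homozygous libraries and 2494 and 1370 CPM in the heterozygous ones (log2 fold change 0.89 ± 0.75, SE; interval -0.97 to 2.76). Homozygous replicate 2 was again the highest of the 4, as it was for 3 members, where it was highest for 26.0% of all tested genes. Per unit of length, apobb.1 stood at 0.424 and 0.565 of apoa4b.1 in the homozygous libraries and at 0.459 and 0.420 in the heterozygous ones. mtp, the gene for microsomal triglyceride transfer protein, also had its highest value in homozygous replicate 2, at 64.3 and 245 CPM in the homozygous libraries and 75.8 and 54.7 CPM in the heterozygous ones.

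The tandem copy apoa4b.2 did not share that course. It had 8997 and 13859 CPM in the homozygous libraries, against 16393 and 5576 CPM in the heterozygous ones. The homozygous values lay between the heterozygous ones, and the log2 fold change was 0.06 ± 0.96 (SE; interval -2.34 to 2.45). Without heterozygous replicate 2 it was -0.53. The TPM ratio of apoa4b.1 to apoa4b.2 was 0.217 and 0.273 in the homozygous libraries, above the 0.121 and 0.196 of the heterozygous ones. Such a separation is common, since 39.2% of all tested genes did not overlap between the genotypes. The ratio was not tested, and it also depends on the uncertain division of shared reads between the copies.

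apoa4a, the class A4 gene beside apoea on chromosome 19, had 710 and 774 CPM in the homozygous libraries and 1536 and 256 CPM in the heterozygous ones. The heterozygous libraries enclosed the homozygous ones, which differed only 1.09-fold. Its log2 fold change was -0.27 ± 0.89 (SE; edgeR adjusted p = 0.95). Relative to its neighbour apoea it hardly varied: the TPM ratio of apoa4a to apoea was 0.0274 and 0.0250 in the homozygous libraries and 0.0327 and 0.0255 in the heterozygous ones. Of all pairs of members these neighbours had the most similar values over the 4 libraries, with a root mean square distance of 0.15 between their centred log2 CPM, followed by apobb.1 and apoa4b.1 at 0.17.

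apoea and apoa1a, the most abundant members, had the same outline. apoea had 26463 and 31668 CPM in the homozygous libraries, against 48002 and 10249 CPM in the heterozygous ones (log2 fold change -0.0030 ± 1.18, SE; interval -2.95 to 2.94). apoa1a had 37299 and 29652 CPM in the homozygous libraries, against 66279 and 13752 CPM in the heterozygous ones (-0.26 ± 1.23, SE; interval -3.32 to 2.81). In both genes the homozygous values fell between a high heterozygous replicate 1 and a low heterozygous replicate 2. The direction rested on which heterozygous fish was used: without heterozygous replicate 1 the log2 fold changes of apoea, apoa1a and apoa4a were 1.54, 1.32 and 1.57, and without heterozygous replicate 2 they were -0.73, -0.99 and -1.06.

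apoeb is the other class E gene, in the chromosome 16 cluster. It had 4894 and 5448 CPM in the homozygous libraries and 4751 and 2632 CPM in the heterozygous ones. The homozygous libraries were both higher, but homozygous replicate 1 exceeded heterozygous replicate 1 only narrowly. The log2 fold change was 0.49 ± 0.74 (SE; interval -1.37 to 2.34; edgeR adjusted p = 0.872), and without heterozygous replicate 2 it was 0.12. Of 13 tested macrophage markers, edgeR called 0 (lowest adjusted p 0.699), and 9 had a negative and 4 a positive log2 fold change. At an edgeR unadjusted p of 0.05, in either direction, 7 of the 13 passed, where 6.47% of all tested genes did. The markers' median log2 fold change was -1.42, and -0.61 over 10 genes without heterozygous replicate 2. The C1q chain gene c1qc, a macrophage transcript, had 0.296 and 0.369 CPM in the homozygous libraries and 4.44 and 7.11 CPM in the heterozygous ones. DESeq2 called c1qc lower (adjusted p = 0.0416), the only macrophage marker that it called, where it called 0.511% of all genes with an adjusted p. The receptor gene csf1ra had 0.148 and 0.277 CPM against 1.71 and 1.53 CPM. These homozygous values rest on 2 and 4 counts for c1qc and 1 and 3 for csf1ra. The marker mpeg1.1 changed less, with 8.14 and 7.47 CPM against 8.19 and 15.1 CPM. Its log2 fold change was -0.58, and -0.08 without heterozygous replicate 2. The 15 macrophage markers found took 0.0344% and 0.0762% of counts in the homozygous libraries, against 0.0810% and 0.101% in the heterozygous ones. Of the 13 tested, 9 were lower in both homozygous libraries and 1 was higher, where 19.3% of all tested genes were lower in both and 19.9% higher. Their part in the apoeb values was not tested. In bulk tissue, fewer cells of a type and less RNA per cell cannot be told apart.

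Between the heterozygous libraries, apoa1b and apoa2 ran against the other 7 members. apoa1b, the second class A1 gene, had 38.1 and 389 CPM in the homozygous libraries, against 10.6 and 1852 CPM in the heterozygous ones, a 175-fold range that was the widest of the 9 members. Its counts were 257 and 4218 in the homozygous libraries and 62 and 16929 in the heterozygous ones. The log2 fold change was -2.12 ± 2.04 (SE; interval -7.21 to 2.96; edgeR adjusted p = 0.785), and without heterozygous replicate 2 it turned to 4.33 ± 1.44 (edgeR adjusted p = 0.448).

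apoa2, whose mammalian counterpart is a further protein of high-density lipoprotein, had 176 and 299.5 CPM in the homozygous libraries, against 99.5 and 963 CPM in the heterozygous ones. As with apoa1b, heterozygous replicate 2 was highest, the homozygous libraries came next and heterozygous replicate 1 was lowest. The log2 fold change was -1.16 ± 1.04 (SE; interval -3.74 to 1.42), and without heterozygous replicate 2 it turned to 1.25. Homozygous replicate 2 was above homozygous replicate 1 in both genes, as in every other member except apoa1a. The full order, heterozygous 2, homozygous 2, homozygous 1 and heterozygous 1 from high to low, was found in 2 of the 9 members. Of all tested genes, 4.72% had it. The order was read from apoa1b and apoa2 themselves, so the count of 2 members is a description only.

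Hepatocyte markers had the same order. Of 27 tested, 21 had it, and fabp10a, the gene for the liver fatty acid binding protein, had 12 and 91.1 CPM in the homozygous libraries and 0.171 and 594 CPM in the heterozygous ones. The 27 markers together took 0.0234% and 0.110% of counts in the homozygous libraries, against 0.00750% and 0.487% in the heterozygous ones, and each was detected in at least 1 library. apoa1b had 3.17 and 4.27 counts per fabp10a count in the homozygous libraries and 3.12 in heterozygous replicate 2. In heterozygous replicate 1 fabp10a had 1 count and apoa1b 62. apoa2 did not keep such a ratio, with 14.7 and 3.29 counts per fabp10a count in the homozygous libraries and 1.62 in heterozygous replicate 2. Beside the 1 fabp10a count of heterozygous replicate 1, apoa2 had 583 counts. The part of the hepatocyte transcripts in the values of apoa1b and apoa2 was not tested.

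**Figure D3:**
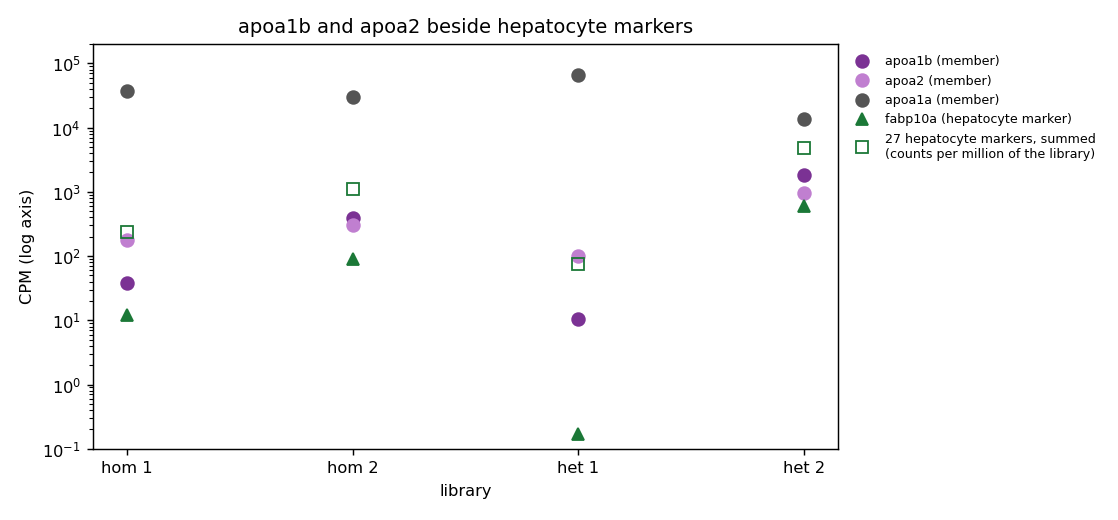
CPM on a log axis in each library of apoa1b, apoa2 and, for contrast, apoa1a, with the hepatocyte marker fabp10a and the summed hepatocyte markers (27 genes, scaled to the library total without TMM). apoa1b, apoa2 and both hepatocyte measures are highest in heterozygous replicate 2 and lowest in heterozygous replicate 1, and apoa1a is the reverse.

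apoc1l, which lies between apoeb and apoa2 and whose mammalian counterpart is a small exchangeable protein of several lipoprotein classes, had 4184 and 4049 CPM in the homozygous libraries and 3135 and 1693 CPM in the heterozygous ones. The libraries did not overlap, and the homozygous ones differed by less than either differed from the heterozygous ones. The log2 fold change was 0.77 ± 0.71 (SE; edgeR adjusted p = 0.778). Between apoc1l and apoa2 lies zgc:193682, a synonym of apoc4 in the RefSeq table, with 1 and 13 counts in the homozygous libraries and 2 and 87 in the heterozygous ones. Transcripts within the cluster thus differed in which library was highest: homozygous replicate 2 for apoa4b.1 and apoeb, homozygous replicate 1 for apoc1l, heterozygous replicate 1 for apoa4b.2, and heterozygous replicate 2 for zgc:193682 and apoa2.

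Of 15 other apolipoprotein genes looked for, 7 were found and 5 tested, with 0 called. apom, the gene for a lipocalin apolipoprotein of high-density lipoprotein, had 6 and 145 counts in the homozygous libraries and 0 and 529 in the heterozygous ones. apoda.2, of the apolipoprotein D class, had 21 and 9 counts in the homozygous libraries and 0 and 779 in the heterozygous ones. Both were thus highest in heterozygous replicate 2, the library in which apoa1b and apoa2 were highest too.

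Summed over the 9 members, apolipoprotein transcripts took 9.62% and 13.1% of all counts in the homozygous libraries, against 13.9% and 3.71% in the heterozygous ones. The mean was 11.3% ± 2.44 in homozygotes and 8.80% ± 7.20 in heterozygotes (SD, n = 2 each). Exact Clopper-Pearson 95% intervals spanned at most 13.87% to 13.92%, in heterozygous replicate 1, and cover counting error only. Leaving the exocrine pancreas and hepatocyte markers out of the totals gave 10% and 13.1% in the homozygous libraries and 14.1% and 5.31% in the heterozygous ones, so heterozygous replicate 2 stayed lowest. The difference between the genotype means was 2.54 percentage points, and -2.55 without heterozygous replicate 2.

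Enterocyte markers were low in the same library. The 18 markers found, among them villin and the brush border peptidases, took 2.29% and 2.90% of counts in the homozygous libraries, against 2.74% and 0.763% in the heterozygous ones. Per 1000 enterocyte marker counts, a scale chosen after the values were seen, the 9 members had 4196 and 4510 counts in the homozygous libraries and 5078 and 4865 in the heterozygous ones. On that scale the summed members varied 1.21-fold over the 4 libraries, against 3.74-fold as a share of all counts. The 18 markers include fabp2, at 3444 to 18453 CPM, far above slc6a19a.1, slc15a1b and mep1b of the same list. The pattern of fabp2 was also among the nearest to that of apoa1a. The scale was not computed without fabp2, so the 1.21-fold range does not describe the members against the other markers alone. The other 8 gene lists examined varied 1.67-fold to 263-fold over the libraries on the same scale, which includes fabp2. That contrast therefore does not show the members to be steadier than the lists. Single members varied more than their sum, from 1.37-fold for apoea to 598-fold for apoa1b.

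**Figure D4:**
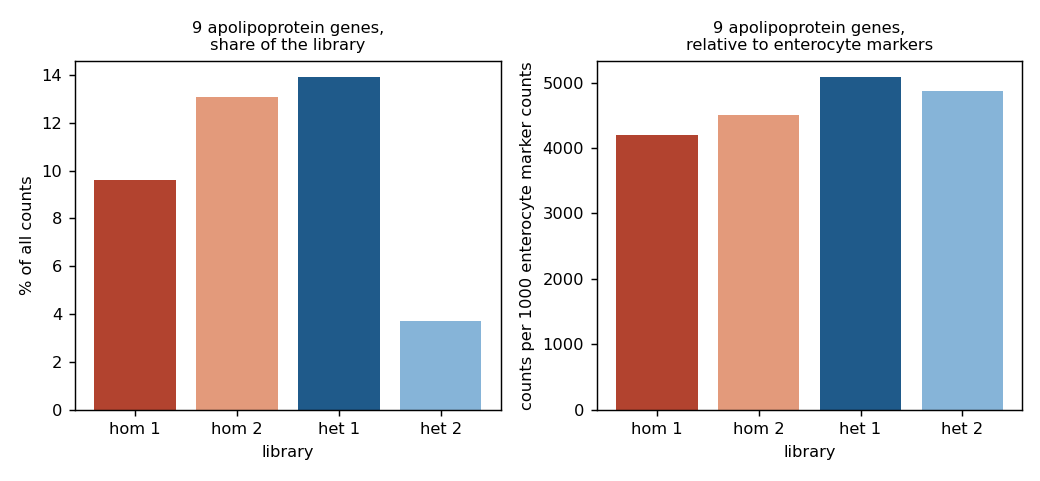
Summed counts of the 9 members in each library, as a percentage of all counts (left) and per 1000 counts of the enterocyte markers (right); both axes start at 0. The bar of heterozygous replicate 2 is 3.71% on the left and 4865 on the right, where the 4 bars lie between 4196 and 5078.

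Within the family the make-up shifted between fish. apoa1a gave 41.0% and 26.3% of the members' counts in the homozygous libraries and 44.0% and 32.6% in the heterozygous ones. apobb.1 gave 11.0% and 23.0% in the homozygous libraries and 7.35% and 13.2% in the heterozygous ones, so homozygous replicate 2 had the largest part of apobb.1 and the smallest of apoa1a. These shares do not depend on how the libraries are scaled, but a long transcript such as that of apobb.1 gives more counts per molecule. Per unit of length, as a share of the members' summed TPM, apobb.1 made up 1.08% and 2.58% in the homozygous libraries and 0.687% and 1.31% in the heterozygous ones. The difference between its genotype means was 6.74 percentage points in counts and 0.83 in TPM. apoea kept between 24.3% and 31.9% in every library, and apoa4b.2 between 9.88% and 13.2%. apoa1b gave 0.0418% and 0.345% in the homozygous libraries and 0.00703% and 4.39% in the heterozygous ones. With 2 libraries against 2, an exact two-sided permutation test cannot give a p below 0.333, so no share was tested.

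**Figure D5:**
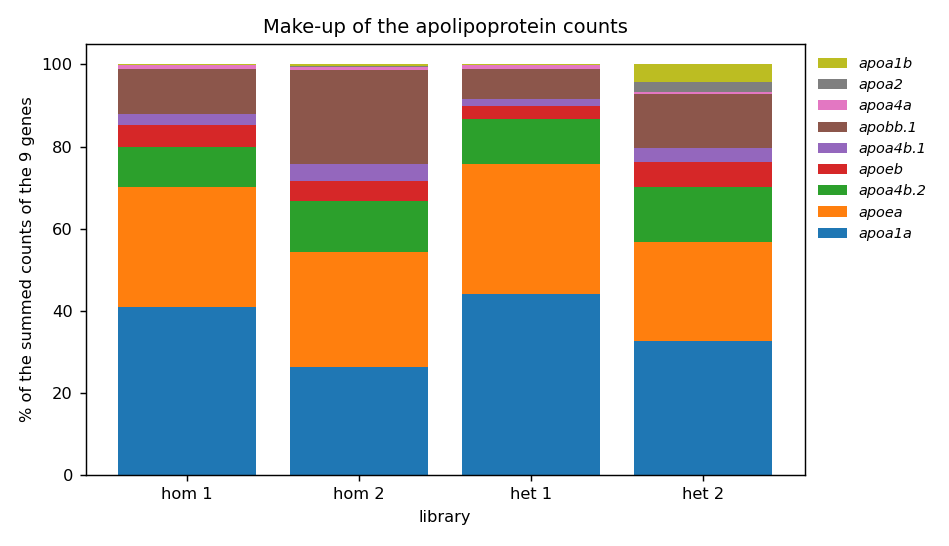
Share of each member in the summed counts of the 9 genes, as stacked bars for each library. apobb.1 (brown) reaches 23.0% in homozygous replicate 2, and apoa1b (olive) is visible in heterozygous replicate 2, at 4.39%.

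The pathway around the members was read from 4 lists, in which 0 genes were called by edgeR. Of all tested genes, 19.9% did not overlap with the homozygous libraries higher and 19.3% with them lower. Of 17 tested enterocyte markers, 14 were higher and 3 lower, 8 of them higher and 0 lower without overlap; their median log2 fold change was 0.82, and 0.53 without heterozygous replicate 2. edgeR called 0 of these markers. DESeq2 called 3, slc6a19a.1, slc15a1b and mep1b, all higher, where it called 0.511% of all genes with an adjusted p. The part of enterocyte content in the values of the 4 lists was not tested. Of 28 tested genes of triglyceride resynthesis and lipoprotein assembly, 15 were higher and 13 lower, with a median log2 fold change of 0.16 against -0.05 over all tested genes; 7 did not overlap with the homozygous libraries higher and 0 with them lower. creb3l3a, a gene for an endoplasmic reticulum transcription factor that activates apolipoprotein genes in mammals, had 29.6 and 74.8 CPM in the homozygous libraries and 16.2 and 16.3 CPM in the heterozygous ones (1.68 ± 0.52, SE; edgeR adjusted p = 0.699). The related gene creb3l3l had 84.7 and 127 CPM against 45.1 and 41.7 CPM (1.28 ± 0.39). Both genes were higher in each homozygous library, with homozygous replicate 2 the highest.

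Of 25 tested genes for transcription factors of apolipoprotein genes, 19 were higher and 6 lower, with a median of 0.24; 9 did not overlap with the homozygous libraries higher and 0 with them lower. hnf4a, the gene for a nuclear receptor that drives apolipoprotein genes in gut and liver, had 21.3 and 84.4 CPM in the homozygous libraries and 17.2 and 20.7 CPM in the heterozygous ones (1.48 ± 0.67, SE). srebf1, a regulator of fatty acid synthesis, had 27.2 and 84.5 CPM against 14.9 and 15.6 CPM (1.87 ± 0.59; edgeR adjusted p = 0.699). For hnf4a the homozygous replicate 1 value lay close to the heterozygous ones, and homozygous replicate 2 carried most of the difference.

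Of 9 tested genes of lipid uptake at the brush border, 5 were higher and 4 lower (median 0.16), with 1 higher and 1 lower without overlap. scarb1, a receptor for high-density lipoprotein, had 36.0 and 57.5 CPM in the homozygous libraries and 18.3 and 15 CPM in the heterozygous ones (1.49 ± 0.40, SE). fabp6, the ileal bile acid binding protein gene, had 1505 and 2444 CPM against 6443 and 11863 CPM (-2.21 ± 0.84), and DESeq2 called it lower (adjusted p = 0.0173). Of 17 tested genes for lipoprotein receptors, lipases and lipid efflux, 6 were higher and 11 lower, with a median of -0.78 that was 0.76 over 16 genes without heterozygous replicate 2. Without overlap, 3 of the 17 were higher and 4 lower. In this list abcg8, of the sterol exporter of the brush border, had 56.0 and 129 CPM in the homozygous libraries and 38.1 and 38.8 CPM in the heterozygous ones. lpl, the gene for lipoprotein lipase, had 5.77 and 9.69 CPM against 2.90 and 188 CPM. DESeq2 called 1 gene of the receptor and lipase list as well, lmf2b, a gene for a lipase maturation factor (adjusted p = 0.034). lmf2b had 7.85 and 3.51 CPM in the homozygous libraries and 18.1 and 84.6 CPM in the heterozygous ones. Over all genes with an adjusted p, DESeq2 called 0.511%.

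Genes with patterns most like the members were sought among 5817 other tested genes with a mean of at least 10 CPM, by the root mean square distance of centred log2 CPM over the 4 libraries. The nearest to apoa1a were zgc:92749 (0.06), si:dkey-25e12.3 (0.09) and fabp2 (0.11). fabp2, which encodes a fatty acid carrier of enterocytes, was thus lowest in heterozygous replicate 2 and highest in heterozygous replicate 1, as apoa1a was. The nearest to apoeb were rhogd (0.03), mbpb (0.04) and tcn2 (0.05). With 4 libraries these distances are a description only.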

How the data were processed

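The authors deposited a table of read-pair counts, as whole numbers, for each gene in 4 whole-gut libraries, with gene lengths in bases. Per the file headers it was made by featureCounts (Subread 1.5.2) from exons, with paired reads and strand setting 2, on danRer10 genes from UCSC. No aligner is named in the sources used here. Per the labels' protocols, libraries were stranded and made from oligo-dT-captured mRNA. A second deposited table, of the authors' own comparison, was not used here.

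Low genes were removed by filterByExpr in edgeR 4.0.16 under R 4.3.3 (minimum count 10, minimum total 15) and libraries were scaled by TMM. Genotype was the only term of the quasi-likelihood fit, with Benjamini-Hochberg adjustment over all tested genes and SEs implied by the F statistic. The fit was run on simulated counts with the same dispersion for all genes. This was a check of the procedure and does not show how the fit performs on data as variable as these. TPM was computed from counts and gene lengths. P-values rest on the spread between 2 samples per genotype, with variance estimates moderated across genes. Alternatives were DESeq2 1.42.0, its size factors, other filters, a block for the replicate number, leaving out single libraries, and leaving out marker lists. Of 225 list entries, 168 matched by name, 10 by a RefSeq synonym and 47 did not match. All 9 members are named. Of each list, some of the up to 4 genes with the smallest unadjusted p are named, with a few set markers. mtp and hnf4a are among these. Of those in the pathway lists, mogat3a, lipg and scarb2 (negative log2 fold changes) and nr1h3, pparaa and slc27a4 (positive ones) are not described. Members and lists were chosen with earlier results of these data known.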

Additional observations from a re-analysis of the deposited data

How the results depend on the processing

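When single libraries were left out, the number of genes called ranged from 0 to 45, the 45 without heterozygous replicate 1, and DESeq2 called 55; none of the 9 members was among them. In these fits a lone sample of a genotype is assumed to vary like the others. Members whose genotypes did not overlap ranged from 1 to 9, since a single library is easily outside a pair. The same count was not made over all tested genes in these fits, so it does not set the members apart from them. The members' median log2 fold change ranged from -0.15 to 1.32. Leaving out 1 library, the range was -0.99 to 1.32 for apoa1a, -4.61 to 4.33 for apoa1b, -1.98 to 1.25 for apoa2, -1.06 to 1.57 for apoa4a, -0.53 to 1.07 for apoa4b.2 and -0.73 to 1.54 for apoea, so these 6 changed sign; apobb.1, apoa4b.1 and apoeb kept theirs under every alternative. Per enterocyte marker count apoa4b.2 was at -0.31. apoea was at 0.0051 without the count filter and 0.024 without the pancreas and hepatocyte markers. With the replicate number as a block, apoa1a, apoa4a and apoea were at 0.14, 0.24 and 0.38. The numbers are not said to pair fish: deviations of same-numbered libraries from their genotype means correlated at r = 0.0643 across genes, and the block left 0 genes called. The summed share of counts, homozygous minus heterozygous, was 2.54 percentage points with all libraries and ranged from -2.55 (without heterozygous replicate 2) to 7.63 (without heterozygous replicate 1). In the members' make-up the same difference ranged from -12.0 to 2.68 points for apoa1a, -4.19 to 0.19 for apoa1b, -2.05 to 0.16 for apoa2, -0.29 to 0.13 for apoa4a, -2.16 to 0.25 for apoa4b.2, -3.29 to 4.3 for apoea and -1.13 to 1.95 for apoeb, so these 7 changed sign. apobb.1 (0.75 to 12.7) and apoa4b.1 (0.20 to 1.79) stayed positive. Each member had at least 62 counts in every library.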
